A study of Mus musculus with 3 samples.

Results

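Wnt ligands, their receptors, the secreted and intracellular modulators of the pathway and a few of its targets were followed on 3 arrays of PDL-L2 cells, a mouse periodontal ligament line kept in culture as immortalised fibroblasts. The genes were chosen by symbol alone: every Wnt, Frizzled (Fzd), R-spondin, Dickkopf (Dkk) and Sfrp gene, Lgr4 to Lgr6, Lrp5 and Lrp6, Ror1 and Ror2, Wif1, Axin1 and Axin2, Ctnnb1 and the TCF/LEF factors. The rule found 55 genes, read by 109 probe sets, among 18193 genes and 45101 probe sets in all. They comprise 19 Wnt ligands, 10 Frizzled receptors, 4 co-receptors (Lrp5, Lrp6, Ror1 and Ror2), 7 R-spondins and Lgr receptors, 9 secreted inhibitors, and 6 genes of the intracellular pathway (Axin1, Axin2, Ctnnb1, Lef1, Tcf7l1 and Tcf7l2). Tcf7 had no probe set with its symbol alone and was not analysed here.
The first array held RNA of cells given the control siRNA (siCont) and vehicle, the second siCont cells given recombinant human BMP-2 at 250 ng/ml, and the third cells given siRNA for endoglin (siENG) with the same dose of BMP-2. Each siRNA was a SMARTpool mixture added 48 h before a treatment of 12 h, and the exposure was made in differentiation medium with ascorbic acid and beta-glycerophosphate. All cells came from the same line, and an array of siENG cells given vehicle was not used here, so a ratio of the siENG array to either siCont array holds the knockdown itself and its effect on the response to BMP-2 together. Each condition has 1 array. No test between conditions was possible, and a difference below has no replicate check.

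Wnt proteins are secreted, lipid-modified ligands that bind Frizzled receptors together with Lrp5 or Lrp6. In the canonical branch this stops the Axin complex from marking beta-catenin (Ctnnb1) for destruction, and beta-catenin then acts on target genes with TCF/LEF factors. R-spondins, through Lgr4 to Lgr6, prolong the life of the receptors at the cell surface, while Dkk, Sfrp and Wif1 proteins restrain the ligand or co-receptor outside the cell. Other Wnts signal through Ror receptors or planar polarity proteins. In periodontal ligament and bone, the pathway is known for its part in the formation of osteoblasts and cementoblasts and for its exchange with BMP signalling.

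Signals below are linear intensities as deposited, and a gene is read by its probe set of highest mean log2 signal. Levels of different genes are not compared, since probe sets differ in affinity. Probe sets for Bacillus transcripts, of which the array holds 27, reached at most 13.1, and a signal at or under it is treated as a bound. A gene was kept in a comparison if at least 1 of the paired signals reached 23, the median over all probe sets and arrays. Among probe sets past the limit, the siENG array exceeded siCont BMP-2 by a median of 0.21 on the log2 scale and siCont vehicle by 0.22, whereas the siCont arrays differed by 0.01. Ratios to the siENG array are therefore also given relative to these medians. The robust SD of log2 ratios among probe sets of like brightness stands beside a value to show how precise it is. It is a spread over genes of the same pair of arrays and not over cultures. In bulk RNA, a larger share of cells with a transcript and more transcript per cell cannot be told apart. Endoglin itself had signals of 286 in siCont cells without and 299 with BMP-2, and 108 in siENG cells with it. Of 8 matched markers of ligament fibroblasts, 6 were above the controls on every array, among them Postn and Col1a1, while Aspn and Tnmd were within them on every array. Of 6 epithelial, 4 endothelial and 5 leukocyte markers, 0, 0 and 2 were above the controls on every array. The 2 were Cd68, with signals of 71.0, 50 and 118 in the order siCont vehicle, siCont BMP-2 and siENG BMP-2, and Csf1r, with 40.6, 31.4 and 47.7. The summed signal of the leukocyte markers was 127.7, 111.5 and 210.7 on the same arrays, with Ptprc and Itgam within the controls on each. The epithelial sum was 109.8, 111.1 and 61.7, and the endothelial sum 18.0, 39.9 and 42.1, with Pecam1, Cdh5 and Tek within the controls on each array. Every epithelial marker passed the controls on at least 1 array, and Kdr and Lyz2 passed them on both arrays with BMP-2. The part of these markers in the ratios was not tested.

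Promoter sequence is shown for Wnt4, Wnt11, Fzd7, Lgr6 and Lef1, whose ratio of BMP-2 to vehicle was 2 or more, since they were higher together in that comparison, and for Lgr4, whose siENG signal stood apart from both siCont signals. The windows are RefSeq sequence of GRCm38.p6, run 5′ to 3′ on the strand of the gene, and hold the 250 bases before an annotated start. Bases inside the annotated span of the gene are not printed, which shortens the Wnt11 and Lgr6 sequences. For a gene with several annotated starts the most upstream is shown. Capitals mark matches to the motifs searched on both strands: for TCF/LEF factors the letters CTTTGAA, the letters CTTTGAT, the letters CTTTGTA and the letters CTTTGTT, for Smad1/5 the letters GGCGCC, for Smad3/4 the letters CAGACA, and for hypoxia-inducible factors the letters ACGTG and the letters GCGTG. On the opposite strand the last of these reads CACGC. In the counts the whole 250 bases were searched, and a window was counted once per motif, however many matches it held.
Wnt4, chr4:137277385-137277634, plus strand: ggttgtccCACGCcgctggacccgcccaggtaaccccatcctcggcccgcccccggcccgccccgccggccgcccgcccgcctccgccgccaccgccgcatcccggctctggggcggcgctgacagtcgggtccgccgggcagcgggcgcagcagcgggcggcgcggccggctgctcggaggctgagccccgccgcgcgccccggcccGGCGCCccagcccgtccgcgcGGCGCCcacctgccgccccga
Wnt11, chr7:98834862-98835083, plus strand: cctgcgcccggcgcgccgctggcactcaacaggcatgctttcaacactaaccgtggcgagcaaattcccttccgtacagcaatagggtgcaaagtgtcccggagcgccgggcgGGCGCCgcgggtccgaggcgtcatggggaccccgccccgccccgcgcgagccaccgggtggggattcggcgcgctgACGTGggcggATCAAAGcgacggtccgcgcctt
Fzd7, chr1:59481897-59482146, plus strand: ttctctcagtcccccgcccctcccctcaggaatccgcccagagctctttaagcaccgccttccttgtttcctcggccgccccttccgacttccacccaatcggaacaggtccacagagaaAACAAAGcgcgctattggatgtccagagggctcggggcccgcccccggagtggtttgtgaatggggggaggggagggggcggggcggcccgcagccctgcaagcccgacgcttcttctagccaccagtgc
Lgr6, chr1:135105375-135105526, minus strand: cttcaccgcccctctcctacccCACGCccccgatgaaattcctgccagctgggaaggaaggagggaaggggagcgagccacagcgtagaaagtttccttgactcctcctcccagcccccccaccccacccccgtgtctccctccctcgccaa
Lef1, chr3:131110047-131110296, plus strand: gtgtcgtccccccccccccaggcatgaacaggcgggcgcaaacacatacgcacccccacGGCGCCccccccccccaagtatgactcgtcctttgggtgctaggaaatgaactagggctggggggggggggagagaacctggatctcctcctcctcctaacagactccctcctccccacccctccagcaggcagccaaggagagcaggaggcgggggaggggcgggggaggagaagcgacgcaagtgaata
Lgr4, chr2:109917397-109917646, plus strand: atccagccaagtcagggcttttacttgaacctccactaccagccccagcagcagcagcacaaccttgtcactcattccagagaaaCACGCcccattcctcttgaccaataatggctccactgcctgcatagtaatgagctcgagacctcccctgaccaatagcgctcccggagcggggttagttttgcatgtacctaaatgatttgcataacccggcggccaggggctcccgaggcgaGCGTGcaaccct
The Wnt4 window holds GGCGCC at 42 to 37 and at 21 to 16 bases before the start, and the hypoxia letters at 242 to 238. The Wnt11 window holds GGCGCC at 137 to 132 and, in the bases not printed, at 8 to 3, the hypoxia letters at 61 to 57 and a TCF/LEF match (ATCAAAG, read on the other strand) at 51 to 45. In Fzd7 the match is to TCF/LEF (AACAAAG), at 130 to 124. At the Lef1 start shown it is GGCGCC, at 191 to 186. Of the 3 further Lef1 starts, the nearest shares this match, and the one farthest downstream holds TACAAAG for TCF/LEF at 147 to 141, Smad3/4 matches at 219 to 214 and 129 to 124 and hypoxia letters at 79 to 74. A further Wnt11 start holds the hypoxia letters at 27 to 23. In Lgr6 the match is the hypoxia letters, at 228 to 224. Lgr4 holds the hypoxia letters at 165 to 161 and at 12 to 8. No motif is common to the 6 windows shown. GGCGCC was not limited to genes whose siCont ratio of BMP-2 to vehicle was 2 or more. The Wnt9a window, not printed, of a gene lower with BMP-2, holds it at 118 to 113 and at 65 to 60. The Fzd10 window, also not printed, holds it at 232 to 227 and at 25 to 20. Fzd10 had ratios to vehicle of 1.72 in siCont and 2.17 in siENG cells with BMP-2.
RefSeq windows were found for 37 of the 55 genes, 45 windows in all, some of them overlapping windows of the same gene or lying inside it. GGCGCC occurred in 15 of the 45 (33.3%) and in 9.59% of all 32851 windows, the hypoxia letters in 26 (57.8%) against 38.6%, TCF/LEF matches in 6 (13.3%) against 14.8%, and CAGACA in 3 (6.67%) against 17.1%. Counted by gene, with a match in any window, GGCGCC occurred in 14 of the 37 genes (37.8%) and in 10.8% of the 27025 genes with a window, and the hypoxia letters in 23 (62.2%) against 41.5%. The windows of Wnt genes are rich in G and C, with a median of 66.8% and 22 CpG against 52.4% and 6 over all windows, and GGCGCC is itself made of these bases. A match is a description of the letters and not evidence of binding.

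Of the 55 genes, 30 (54.5%) were above the Bacillus controls on every array, beside 59.5% of all 18193 genes. All 6 intracellular genes and 9 of 10 Frizzled receptors were among them. So were 6 of 19 Wnt ligands (Wnt4, Wnt5a, Wnt6, Wnt7a, Wnt7b and Wnt11), 3 of 7 R-spondin and Lgr genes (Lgr4, Lgr6 and Rspo2), 4 of 9 secreted inhibitors (Sfrp1, Sfrp2, Sfrp4 and Wif1) and 2 of 4 co-receptors (Lrp5 and Lrp6). A further 4 were above the controls on 2 arrays (Wnt9a, Wnt10a, Ror1 and Sfrp5), 4 on 1 array (Wnt8a, Wnt10b, Fzd9 and Dkk3) and 17 on none. Since probe sets differ in affinity, these counts do not rank the groups. Those on none were the ligands Wnt1, Wnt2, Wnt2b, Wnt3, Wnt3a, Wnt5b, Wnt8b, Wnt9b and Wnt16, the R-spondins Rspo1, Rspo3 and Rspo4, Lgr5, Ror2 and the Lrp antagonists Dkk1, Dkk2 and Dkk4. A probe set within the controls does not show that the transcript is absent. In all, 31 genes passed the limit of 23 on at least 1 array, and these carry the comparisons.

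**Figure D1:**
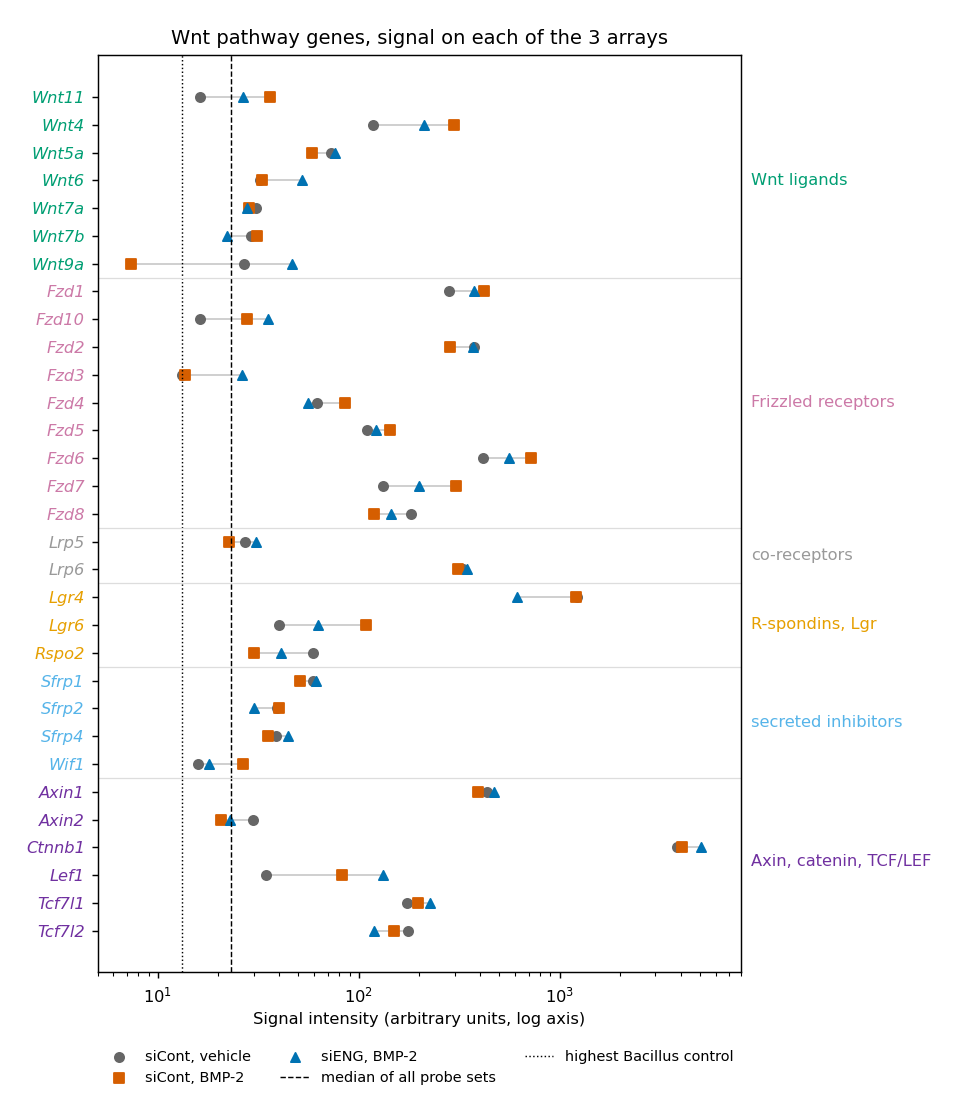
Signal intensity (arbitrary units, log axis) of the 31 Wnt pathway genes past the limit on at least 1 array, with 1 point per array (grey circles siCont vehicle, orange squares siCont BMP-2, blue triangles siENG BMP-2) and genes grouped by role. The dashed line is the limit of 23 and the dotted line the highest Bacillus control, 13.1; for Lgr4 the siENG point lies apart on the left, for Lef1 it lies on the right, and for Wnt4, Fzd7 and Lgr6 the siCont BMP-2 point is the rightmost.

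With BMP-2, 5 of the 30 Wnt genes kept had a ratio to vehicle of 2 or more, namely Wnt4, Wnt11, Fzd7, Lgr6 and Lef1. Over all 10810 genes kept, 195 (1.80%) did. A ratio of 0.5 or less was found for 1, Wnt9a, against 170 (1.57%) of all genes kept, and 24 lay between. Relative to the median of probe sets the members' counts were again 5 and 1, beside 1.78% and 1.59%. The median log2 ratio of the 30 genes was 0.03, beside 0.01 for all genes kept, with 16 above 0 and 14 below, where 51.6% of all genes kept were above 0. The 5 genes comprise a pair of ligands, a Frizzled receptor, an R-spondin receptor and a TCF/LEF factor. Fzd7, Lgr6 and Lef1 were picked for mention in the study from the arrays used here, and their direction is therefore not independent evidence.

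Among the ligands, Wnt4, a Wnt known from kidney and female reproductive tract development and expressed in skeletal progenitors, stood out. Its signals were 118 for vehicle, then 299 for siCont and 212 for siENG under BMP-2. Both arrays with BMP-2 were above the vehicle array, and the siCont one was the higher. BMP-2 against vehicle gave a log2 ratio of 1.34 (robust SD 0.21). A second, dimmer probe set gave 39.8, 76.8 and 36.9 in the same order, a log2 ratio of 0.95. Wnt11, a ligand of the non-canonical branch, was dim, with signals of 16.2 in vehicle, 36.2 after BMP-2 and 26.5 in the knockdown with BMP-2. Its log2 ratio of 1.16 (robust SD 0.50) rests on a gene that passed the limit only through its brighter arrays. Wnt9a, a ligand of joint formation, had 26.9 in siCont cells without and 7.3 with BMP-2, and 46.3 in siENG cells with it. The siCont BMP-2 signal lies within the controls, so the difference from vehicle is given as at least 2.05-fold lower, and the 1 other probe set of the gene was within the controls on every array. With low signals set to the median of 23, or with 16 added to every signal, neither Wnt9a nor Wnt11 was past its ratio, and at that median the log2 values were -0.23 for Wnt9a and 0.65 for Wnt11. Wnt5a, a ligand of Ror receptors, had 72.5, 58.4 and 75.9 in its brightest probe set and 59.0, 67.0 and 71.2 in the next, with log2 ratios of -0.31 and 0.18, so its direction was not settled. Wnt6, Wnt7a and Wnt7b had log2 ratios between -0.11 and 0.10, within their robust SD of 0.45 to 0.50.

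The Frizzled receptors did not move alike. Of 8 kept, 6 had a higher and 2 a lower signal with BMP-2, and the median log2 ratio was 0.52. Over all genes kept, 51.6% had a higher signal. Fzd7, a receptor of canonical and non-canonical Wnts expressed in many stem cells, had signals of 132 for vehicle, then 304 for siCont and 199 for siENG under BMP-2. Its log2 ratio was 1.20 (robust SD 0.21). The second probe set of Fzd7 was dim and flat, at 28.0, 26.7 and 23.9, with a log2 ratio of -0.07 (robust SD 0.50). The ratio of Fzd7 therefore rests on 1 probe set.
Fzd6, which acts in planar polarity and can restrain canonical signalling, had 415 in vehicle, 719.8 after BMP-2 and 562 in the knockdown with BMP-2. It was higher with BMP-2 in both probe sets past the limit, by log2 ratios of 0.80 (robust SD 0.15) and 0.53 (0.21), although its ratio of 1.74 did not reach 2. Fzd1, a receptor of canonical signalling close in sequence to Fzd2 and Fzd7, had 283, 418 and 374, and its probe sets had log2 ratios of 0.57 and 0.42. Fzd4, the receptor of norrin, had 0.47 and 0.69, and Fzd5 had 0.38. On the other side, Fzd8 had signals of 181, 119 and 145 in the order siCont vehicle, siCont BMP-2 and siENG BMP-2. Its log2 ratios of -0.61 and -0.63 came from 2 probe sets, with robust SDs of 0.21 and 0.60. Fzd2 was lower in its brightest probe set (-0.41, robust SD 0.17) but not in the 2 others (0.00 and -0.03). Fzd10 was near the limit, with 16.2, 27.9 and 35.2. The co-receptors Lrp5 and Lrp6 had log2 ratios of -0.26 and -0.08, within their robust SDs of 0.50 and 0.17.

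Among R-spondins and their receptors, the ligand and receptors that were measurable each took another course. Lgr6, an R-spondin receptor and a marker of stem cells in skin and bone, had signals of 40.2 in siCont cells without and 109 with BMP-2, and 62.9 in siENG cells with it. The log2 ratio with BMP-2 was 1.44 (robust SD 0.29). Its second probe set gave 34.8, 49.5 and 49.2 and a log2 ratio of 0.51 (0.45), the same direction at a smaller size. Lgr4, a widely expressed receptor of R-spondins, was alike on both siCont arrays, 1224 and 1212, with a log2 ratio of -0.01 (robust SD 0.11). Rspo2, the only R-spondin measurable here, had 59.1 for vehicle, then 30.1 for siCont and 40.8 for siENG under BMP-2. Its ratio of 0.509 lay just above 0.5, with a log2 value of -0.97 (robust SD 0.45). The other Rspo2 probe set, at 3.7, 12.6 and 15.8, was under the limit and within the controls on both siCont arrays. The lower Rspo2 signal with BMP-2 therefore rests on 1 probe set.

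**Figure D2:**
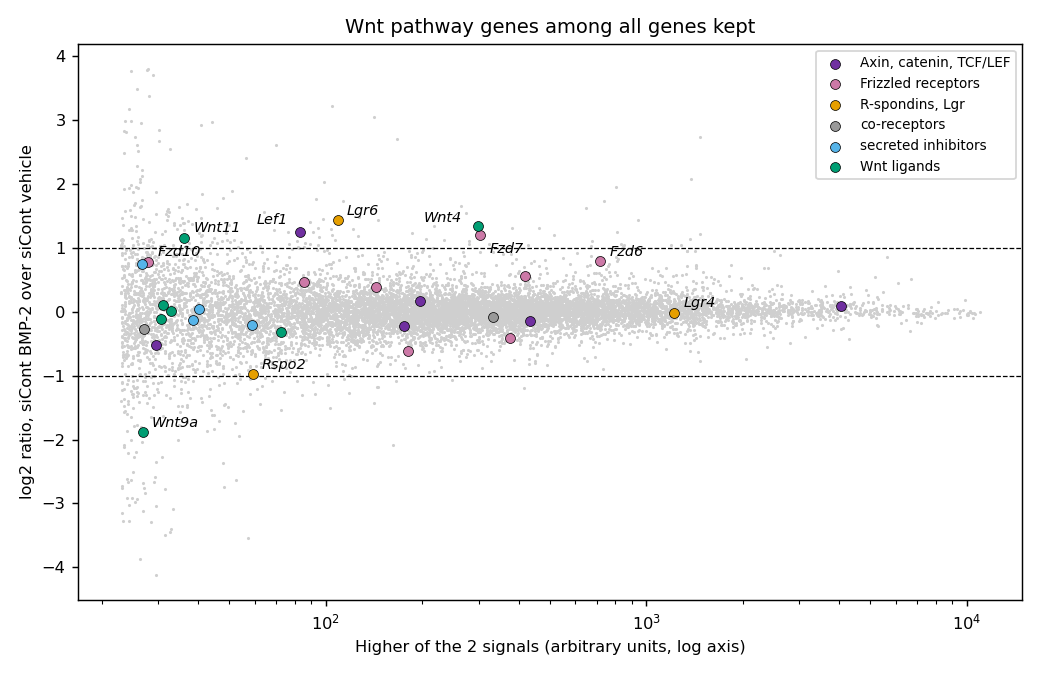
BMP-2 response of siCont cells (log2 ratio to vehicle, vertical axis) by the brighter of the paired signals (arbitrary units, log axis), with a grey point for each of the 10810 genes kept and coloured points for the 30 Wnt pathway genes by role. Dashed lines mark ratios of 2 and 0.5; Wnt4 and Fzd7 lie above the cloud at middle signals, whereas Wnt11, Fzd10 and Wnt9a lie at the dim end, where all genes spread widely.

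Of the secreted inhibitors kept, none reached a ratio of 2 or 0.5 with BMP-2 in the probe set that represents the gene. Sfrp2 and Sfrp4, which bind Wnt proteins, had log2 ratios of 0.04 and -0.13 (robust SD 0.45 for each). Sfrp1 was read by 3 probe sets past the limit, with signals of 58.9, 51.0 and 61.3, of 26.7, 14.5 and 32.9 and of 25.8, 11.0 and 32.1. Each was lowest on the siCont BMP-2 array, with log2 ratios to vehicle of -0.21 and -0.88 in the brighter 2. In the dimmest, where the siCont BMP-2 signal lies within the controls, it was at least 1.97-fold lower. Wif1, the Wnt inhibitory factor, was near the limit with 15.9, 26.6 and 17.9.

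Lef1, a partner of beta-catenin and itself a Wnt-responsive gene, was the member of the intracellular pathway with a ratio above 2. Its signals were 34.7 in vehicle, 82.9 after BMP-2 and 131 in the knockdown with BMP-2, an ascending series across the 3 arrays. BMP-2 over vehicle gave a log2 ratio of 1.26 (robust SD 0.34). In its second probe set, at 17.2, 20.9 and 45.4, the log2 ratio was 0.28 with a robust SD of 0.60, so the step from vehicle to BMP-2 rests on the brighter probe set. Tcf7l1, a TCF that mostly represses, was at 0.18 in the brighter and 0.62 in the dimmer of its 2 probe sets. The 4 probe sets of Tcf7l2 gave -0.22, 0.55, 0.18 and -0.54, with no common sign. Axin1, the scaffold of the destruction complex, had -0.15 and -0.14. Axin2, the feedback target often used to read canonical signalling, was dim at 29.6, 20.7 and 22.8, with a log2 ratio of -0.52 (robust SD 0.50). The 3 probe sets of Ctnnb1 had log2 ratios of 0.09, 0.26 and 0.20. The other probe set of Axin2 was within the controls on every array. In its brighter probe set Lef1 thus had a higher signal with BMP-2, while the Axin2 probe set above the controls did not.

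Between siENG and siCont under BMP-2, Lgr4 stood apart among the bright Wnt genes. Its signals were 1224 in siCont cells without and 1212 with BMP-2, and 610.0 in siENG cells with it, so the siENG array stood apart from both siCont arrays, which were alike. The log2 ratio of siENG over siCont was -0.99 as deposited, a ratio of 0.503, and -1.20 relative to all probe sets past the limit, where the robust SD was 0.27. The other probe set of Lgr4 was within the controls on every array, so this value rests on 1 probe set.
As deposited, 1 of 30 Wnt genes kept, Wnt9a, had a ratio of 2 or more, beside 4.04% of all 10854 genes kept, and 0 had 0.5 or less, beside 1.66%. Relative to the median, the counts were 1, beside 2.32%, and 2, Lgr4 and Lgr6, beside 2.70%. The relative ratio of Lgr6 lay just at the line, with a log2 value of -1.002. The study listed Lgr6 as endoglin-dependent from the same arrays, so its direction here is not independent evidence either. The median log2 ratio of the 30 genes was 0.17 as deposited, beside 0.24 for all genes kept. Relative to the median the same values were -0.04 and 0.03. The siCont BMP-2 array serves in this comparison and in that with vehicle, so an error in that array enters both ratios with opposite sign.

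The members higher with BMP-2 took different courses on the siENG array. Wnt4 had a relative log2 ratio to siCont BMP-2 of -0.70 (robust SD 0.33) and stayed above vehicle, at 0.63 relative to the median. Its second probe set was at -1.27 (robust SD 0.42), with a siENG signal of 36.9 beside 39.8 in vehicle, so the probe sets differ on whether Wnt4 remained above vehicle. Fzd7 was at -0.82 (robust SD 0.33), Fzd6 at -0.57 and -0.34, and Fzd1 at -0.37 and -0.23. Wnt11 was at -0.66, near its robust SD of 0.56. Lgr6 was at -1.002 (robust SD 0.40) in its brighter probe set and at -0.22 in the other. Over the family, 8 of the 30 genes above the controls on every array were lowest in vehicle and highest with siCont and BMP-2, as deposited: Wnt4, Wnt11, Fzd1, Fzd5, Fzd6, Fzd7, Lgr6 and Wif1. This is 26.7%, beside 8.71% of the 10824 genes of the whole array above the controls on every array, and no test was made. The count reads each gene by its brightest probe set. The second probe sets of Wnt4, Fzd5 and Fzd7 had another order, that of Fzd5 with signals of 17.7, 18.8 and 22.4. Relative to the median, Fzd5 and Wif1 lay below vehicle on the siENG array, by log2 ratios of -0.06 and -0.05, and Tcf7l1 entered the order at -0.0090 to siCont BMP-2, which made 7 genes (23.3%), beside 11.1% of all genes.
Lef1 took the other course. Its relative log2 ratio of siENG over siCont BMP-2 was 0.45 (robust SD 0.40) and 0.91 (0.56) in its second probe set. Both probe sets were highest on the siENG array and lowest in vehicle.

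Fzd4 was lowest on the siENG array in both probe sets past the limit. Their signals were 61.8, 85.7 and 55.8, and 46.7, 75.3 and 32.4, in the order siCont vehicle, siCont BMP-2 and siENG BMP-2. The log2 ratios of siENG over siCont BMP-2 were -0.62 and -1.22, or -0.83 and -1.43 relative to the median, with a robust SD of 0.42. Tcf7l2 was below siCont BMP-2 in 4 of 4 probe sets, with relative log2 ratios of -0.54, -0.89, -0.30 and -0.76.
Members higher on the siENG array were mostly dim. Wnt9a was, as deposited, at least 3.53-fold above its siCont BMP-2 signal, which lies within the controls. Wnt6 had a relative log2 ratio of 0.46 (robust SD 0.49) and Fzd3, from 13.7 to 26.3, of 0.73 (robust SD 0.63). Fzd3 passed the limit only through its siENG signal. Its second probe set, under the limit at 14.3 and 17.3, had a relative log2 ratio of 0.06 (robust SD 0.76). The brighter 2 probe sets of Sfrp1 were at 0.06 and 0.97, and the dimmest was at least 2.45-fold higher as deposited. Against vehicle the 3 lay at -0.16, 0.08 and 0.09, each within its robust SD of 0.44 to 0.56. Ctnnb1 was at 0.11, 0.15 and 0.36, where the robust SD was 0.22 to 0.27. Rspo2 was at 0.23 and Axin2 at -0.07, both within their robust SDs of 0.49 and 0.63. Axin2 was under the limit of 23 on both arrays and so was not among the genes kept. Lrp5, Lrp6, Axin1, Tcf7l1 and Fzd8 likewise lay between -0.06 and 0.23 in the probe sets that represent them.

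**Figure D3:**
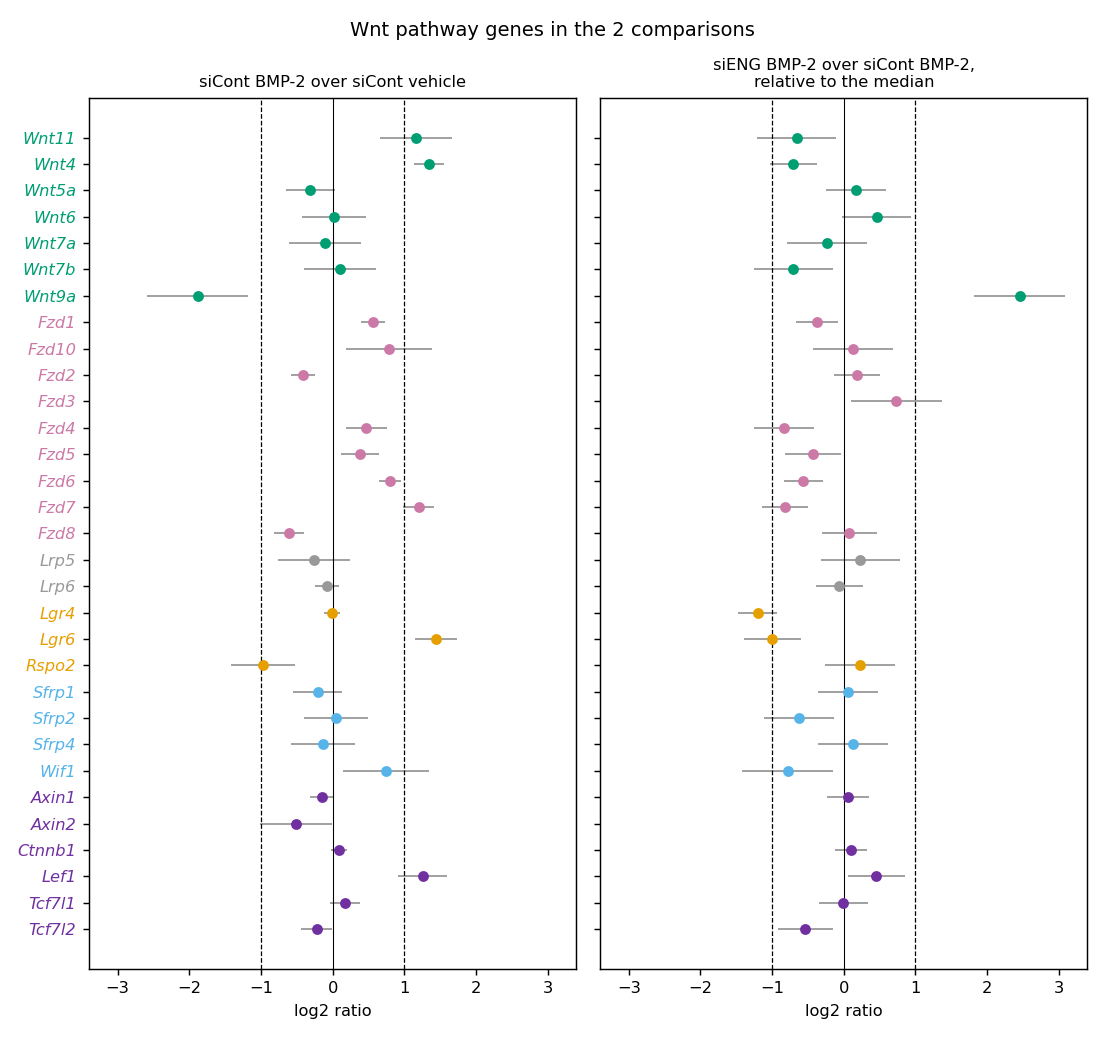
Log2 ratios for BMP-2 against vehicle in siCont cells (left) and for siENG against siCont under BMP-2, centred on the median ratio (right), for the Wnt pathway genes kept in each comparison. Bars are the robust SD of the log2 ratio among probe sets of similar signal, not a replicate error, and dashed lines mark ratios of 2 and 0.5; Lgr4 lies near 0 on the left and at -1.20 on the right, and Lef1 lies above 0 in both.

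Against siCont vehicle, the siENG array with BMP-2 had a ratio of 2 or more for 2 of 30 Wnt genes kept, Lef1 and Fzd10, beside 3.99% of all 10847 genes kept. Relative to the median 1 remained, Lef1, beside 2.25%. The log2 ratio of Lef1 was 1.92 as deposited and 1.70 relative to the median (robust SD 0.44), and 1.18 in the second probe set. Lgr4 was the gene at 0.5 or less, with a relative log2 ratio of -1.23 (robust SD 0.28), beside 1.73% of genes as deposited and 2.85% relative to the median. Fzd10 was dim, and its relative log2 ratio of 0.90 did not reach 2-fold. This comparison shares an array with each of the other 2, so the values for Lef1 and Lgr4 are not further evidence beside those above.

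Where a gene had several probe sets past the limit, they served as a check on reading, though from the same RNA. With BMP-2 over vehicle the log2 ratios had the same sign in 11 of 15 such genes, the exceptions being Fzd2, Fzd7, Tcf7l2 and Wnt5a. With siENG over siCont BMP-2 the sign was the same in 15 of 15 as deposited, where 75.1% of all genes kept had a log2 ratio above 0, and in 13 of 15 relative to the median, with Fzd2 and Wnt5a mixed. With siENG BMP-2 over vehicle it was the same in 11 of 16, with Fzd2, Fzd7, Lrp6, Tcf7l2 and Wnt4 mixed as deposited.

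**Figure D4:**
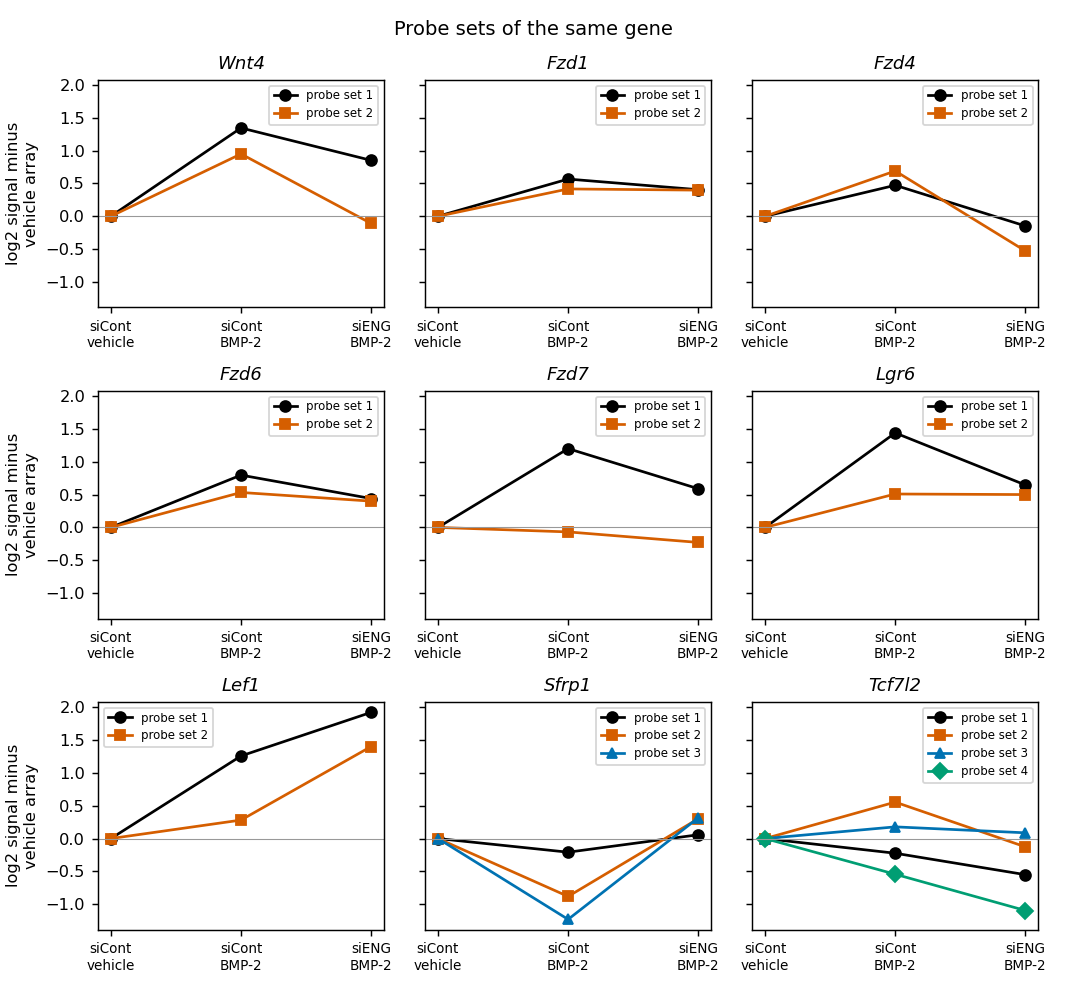
Log2 signal minus that of the siCont vehicle array for 9 Wnt pathway genes with several probe sets past the limit, with 1 line per probe set (probe set 1 is the brightest) over the 3 arrays. The lines of Fzd1, Fzd4 and Fzd6 run together, those of Lef1 end highest on the siENG array, and those of Fzd7 and Tcf7l2 part on the siCont BMP-2 array.

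The other genes of the pathway were counted by list. With BMP-2 over vehicle, 0 of 13 genes kept of Wnt secretion and extracellular handling, 0 of 9 other membrane proteins, 0 of 28 cytoplasmic signalling genes and 0 of 20 nuclear cofactors reached a ratio of 2 or of 0.5. Their median log2 ratios were -0.10, 0.06, -0.02 and 0.06. Of 19 genes known to respond to beta-catenin, 1 had a ratio of 2 or more, Ptgs2, and 0 had 0.5 or less, with a median of 0.20. Beside the 1.80% and 1.57% of all genes kept, counts near 0 in lists of these sizes are no result about them. Ptgs2, the inducible prostaglandin synthase, answers to many other signals as well. Notum, an enzyme that removes the lipid of Wnt proteins and is itself a Wnt target, had 179 for vehicle, then 264 for siCont and 155 for siENG under BMP-2, a log2 ratio of 0.56 (robust SD 0.19). Znrf3, the ubiquitin ligase that removes Frizzled receptors and on which R-spondins act, had 97.5, 122 and 151, with 0.32 (0.26) for BMP-2. Fosl1, an AP-1 factor, had 37.0, 65.6 and 112, with 0.83 (0.34). Tinagl1, a matrix protein, was lower with BMP-2, at 275, 169 and 288, with -0.70 (0.19).
With siENG over siCont BMP-2, ratios of 0.5 or less relative to the median were found for 1 of 13 genes of secretion and handling (Sulf2), 2 of 9 membrane proteins (Mcc and Tmem198), 2 of 27 cytoplasmic genes (Nkd1 and Daam2), 2 of 20 nuclear cofactors (Tle4 and Hic1) and 3 of 20 beta-catenin responders (Gja1, Nkd1 and Ptgs2), beside 2.70% of all genes kept. Nkd1 and Hic1 had siENG signals within the controls. A ratio of 2 or more was found for 0 in each list, beside 2.32%. As deposited the counts at 0.5 or less were 1, 0, 1, 2 and 3, beside 1.66% of all genes kept, and 1 gene, Bambi, was at 2 or more, beside 4.04%. The medians of the 5 lists, relative to the median of probe sets, were -0.23, -0.10, -0.02, -0.09 and -0.29.
Sulf2, a sulfatase that trims heparan sulfate and frees Wnt ligands, had 554 in vehicle, 705 after BMP-2 and 323 in the knockdown with BMP-2. Its 3 probe sets had relative log2 ratios of -1.34, -2.05 and -0.35, with robust SDs of 0.30 to 0.33. Tle4, a Groucho co-repressor that binds TCF/LEF factors, had 149 in siCont cells without and 158 with BMP-2, and 56.7 in siENG cells with it, near each other on the siCont arrays and lower with siENG, a relative log2 ratio of -1.69 (robust SD 0.40). In its second, dim probe set, at 33.0, 18.1 and 20.5, the siENG signal was not below that of siCont BMP-2. Notum was at -0.98 (robust SD 0.34), below its vehicle signal, and Znrf3 at 0.10 (0.39). Gja1, the connexin of bone and ligament cells, had 1373 for vehicle, then 1974 for siCont and 752 for siENG under BMP-2 and a relative log2 ratio of -1.60 (0.22). Apcdd1, a membrane inhibitor of Wnt signalling, descended across the arrays in its 3 brightest probe sets, with 248, 191 and 122, 261, 169 and 105 and 132, 86.1 and 64.4. Fosl1 had 0.56 (0.40) and was highest with siENG. Over the 20 beta-catenin responders kept, 6 were higher and 14 lower on the siENG array relative to the median, where 53.7% of all genes kept were higher, and as deposited 8 were higher and 12 lower, where 75.1% were higher.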

How the data were processed

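Total RNA from 3 conditions of PDL-L2 cells was hybridised to Mouse Genome 430 2.0 arrays, 1 per condition. Linear signal intensities, a single value for each probe set and array, were deposited by the authors, with GCOS 1.4 named in the processing notes of the submitters. Neither the signal algorithm nor the scaling was stated in the sources at hand. The number of arrays limits the precision. Of 45101 probe sets, 64 controls were left out. Symbols came from the platform annotation, looked up by gene identifier in the RefSeq table of GRCm38.p6, and only the 34945 probe sets with a single symbol name a gene. A listed 0 was replaced by 0.1. A gene was read by its probe set of highest mean log2 signal. Log2 ratios were formed from the deposited signals. Counts took ratios that reached 2, or 0.5 on the lower side, where the higher signal was at least 23. Relative ratios subtract the median log2 ratio of probe sets past that limit. The robust SD (1.4826 times the median absolute deviation) was taken in 20 bins of mean log2 signal over all probe sets.
The members and lists were chosen with earlier results of these data known. Named by rule were the Wnt genes past a ratio, the 8 largest and 8 smallest ratios of the first 2 comparisons, the 10 of highest signal, Lef1, Fzd7, Lgr6, Axin2, Ctnnb1, Lrp5, Lrp6, Eng and up to 4 genes of each list and comparison. Others (Fzd5, Wnt1, Wnt2b, Wnt7a, Wnt8a, Wnt9b, Wnt10b, Wnt16, Sfrp1, Sfrp2, Sfrp4, Dkk1 and Dkk3) were named after their values were seen. The calculation of ratios and counts was checked on simulated signals. Alternatives were median centring, quantile normalization, lowess centring (fraction 0.3), scaling to the same 2% trimmed mean, dropping the limit, raising it to the 75th percentile, setting low signals to the median, adding 16 to every signal, the mean over probe sets and the second probe set. Software was numpy 2.4.6, pandas 2.3.3, statsmodels 0.14.6 and matplotlib 3.10.9 under Python 3.11.15.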

Additional observations from a re-analysis of the deposited data

How the results depend on the processing

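With BMP-2 over vehicle, the count of Wnt genes whose ratio reached 2, 5 as reported, was 5 under median centring, quantile normalization, lowess centring and the trimmed mean, 4 with the floor, 13 without a signal limit, 2 with the limit at the 75th percentile, 3 with 16 added, 3 by the mean over probe sets and 1 by the second probe set. Of the 5 genes, Wnt4 remained past 2 by the mean over probe sets. That mean leaves the value of Wnt11 unchanged by construction, so it is no check on it. By the second probe set Wnt4, Fzd7 and Lgr6 did not reach it, that of Lef1 was under the limit, and Wnt11 has a single probe set. Wnt11 and Lef1 fell short of 2 with 16 added, and Wnt11 also with the floor. The count of 1 at 0.5 or less was 5 without a limit and 0 with the higher limit, the floor, 16 added or the second probe set. By the mean over probe sets Wnt9a fell under the limit, and Lgr4 passed 0.5 through a probe set within the controls. For siENG over siCont BMP-2, the count of 1 at 2 or more was 5 without a limit, 2 by the second probe set and 0 with the higher limit or the mean over probe sets. The count of 0 at 0.5 or less became 2 under median centring, 2 with the trimmed mean, 1 by quantile normalization, 1 by lowess centring, 10 without a limit and 2 by the second probe set. Lgr4 was among these under the 4 scalings. For siENG BMP-2 over vehicle, the count of 2 at 2 or more was 1 under median centring, the trimmed mean, the floor, 16 added, the mean over probe sets or the second probe set, 5 without a limit and 0 with the higher limit, and the count of 1 at 0.5 or less was 6 without a limit and 0 with 16 added, the mean over probe sets or the second probe set. Genes without a limit include those within the control signals.
The median log2 ratio with BMP-2 moved from 0.03 to 0.22 by the second probe set. That of siENG over siCont BMP-2 moved from 0.17 to -0.037 under median centring, -0.047 by quantile normalization, -0.051 by lowess centring, -0.038 with the trimmed mean, -0.16 without a limit, -0.0081 with the higher limit and 0.039 by the second probe set. That of siENG BMP-2 over vehicle moved from 0.17 to -0.053, 0.0098, 0.0091 and -0.069 under the same 4 scalings. Fzd7 had a log2 ratio with BMP-2 of -0.069 by its second probe set, which reversed its direction. Only a value at a ratio of 2 or more, or 0.5 or less, as reported could be counted as reversed. Of the other values of named genes, 622 moved by less than the robust SD and 45 by more. Smaller values that changed sign are among these. With BMP-2, Tcf7l2 went from -0.22 to 0.55 and Wnt5a from -0.31 to 0.18 by the second probe set. Lgr4 changed sign for siENG over siCont BMP-2 by the mean over probe sets, which takes in a probe set within the controls. The causes of these moves were not tested, beyond the fewer genes and probe sets that a limit or a second probe set leaves. No paired analysis was possible because each condition has 1 array. A signal within the controls on every array limits 17 of the 55 genes.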

Other observations

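Dkk3, a Dickkopf relative that does not act through Lrp receptors, was read by 2 probe sets whose courses were opposite. Signals were 11.5, 1.9 and 16.1 in the first and 2.5, 13.2 and 1.7 in the second, in the order siCont vehicle, siCont BMP-2 and siENG BMP-2, all below the limit of 23. Dkk1, the best known Lrp antagonist, had 2.8, 10.2 and 1.8 in the first and 0.4, 5.3 and 4.4 in the second, all within the range of the Bacillus controls. Among the Wnt ligands within or near that range, Wnt10b had 4.3, 2.7 and 16.5 and Wnt8a 6.9, 9.2 and 15.4. Both passed the controls on the siENG array alone and were named after their values were seen, so their order is no result. Wnt16 was also highest on that array, whereas others within the controls, among them Wnt1, Wnt2b and Wnt9b, were lowest there. These too were named after their values were seen, and their order is no result either. The planar polarity gene Vangl2 was lower with BMP-2 than with vehicle in its brightest probe set, with 65.0, 44.7 and 46.9, and higher in the other 2, with 33.7, 42.1 and 71.7 in the second and 22.8, 33.5 and 31.6 in the third. Rac1, a GTPase of non-canonical signalling and of cell movement, was higher on the siENG array in both bright probe sets, with 3459, 3323 and 5223 in the first, 2187, 2113 and 3344 in the second, and relative log2 ratios to siCont BMP-2 of 0.44 and 0.45, where the robust SD was 0.22.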
